A study of Monomorium pharaonis with 23 samples.

Results

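In the head RNA of pharaoh ants, 79 genes were higher in nurses than in foragers in at least 90% of all comparisons of 1 forager library with 1 nurse library. They were chosen from 9622 of the 12648 measured genes, those with at least 1 RPKM in at least 9 of the 23 libraries. RPKM is a read count scaled to the length of the gene and to the read total of the library. For each gene, every forager library was compared with every nurse library, and the pair score is the share of pairs in which the forager was higher. Genes with a score of at most 0.10 were taken, 0.821% of the 9622; the nurse was higher in most pairs, a score under 0.5, in 39.5% of the 9622 and, by the rule, in all 79. The difference between the tasks is therefore what chose these genes, and it is described here without a test.

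The libraries were made from heads of Monomorium pharaonis workers: 9 from foragers caught while searching for food and 14 from nurses caught while tending larvae. All came from colonies of 10 queens, 300 to 400 workers and 300 to 400 brood, kept at 27 degrees C and fed mealworms and an agar-based diet; the labels name no strain, age or treatment that sets the tasks apart other than the task itself. The labels do not say how many heads or colonies stand behind a library, so the spread between libraries may be partly technical. Workers of many ant species nurse when young and forage when older. The head holds, beside the brain and sense organs, muscle, fat body and several exocrine glands, and secretions of head glands take part in feeding brood in many social insects. In such whole-head RNA, fewer cells of a type and less RNA per cell cannot be told apart. The 79 genes are known here by identifier only. Of these, 70 matched an entry of the RefSeq assembly ASM1337386v2, all without a symbol of their own, so no function is given to any of them and the tissue could not be checked against marker genes.

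The 79 genes ranged from scarce to very abundant and differed mostly by a moderate factor. Their mean level had a median of 19.6 RPKM in foragers and 35.9 RPKM in nurses, where the medians over all 9622 genes were 11 and 10.7. By the mean of the forager and nurse means, 55 of the 79 lay at or above 10 RPKM, 17 at or above 100 and 7 at or above 500. Over the 9622 genes, the shares at these levels were 52.7%, 5.09% and 0.676%, against 69.6%, 21.5% and 8.86% of the 79. The ratio of the nurse mean to the forager mean had a median of 1.98 and ran from 1.30 to 4.39. It was at least 2 in 37 genes, at least 3 in 8 and under 1.5 in 9. As the difference of mean log2(RPKM + 1), a scale that shrinks the folds of scarce genes, the median fold, nurses minus foragers, was 0.87, where the median over the 9622 genes was -0.03. A difference of at least 1 on that scale was found in 25 of the 79 and in 1.09% of the 9622.

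**Figure D1:**
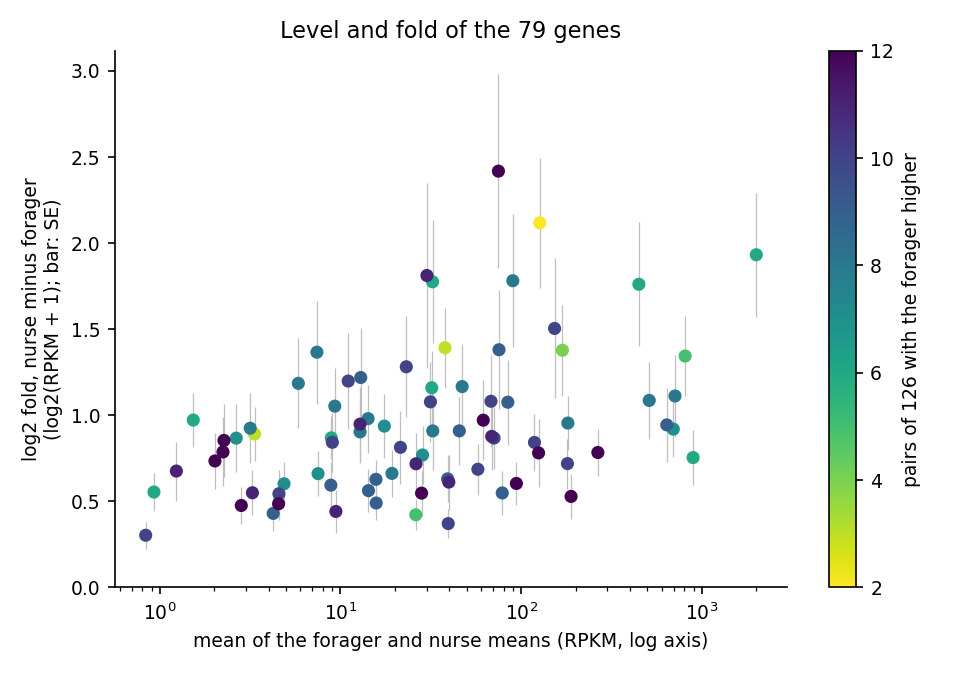
Each point is 1 of the 79 genes: its mean level (RPKM, logarithmic axis) against its log2 fold, nurses minus foragers, with the standard error as a bar and the number of pairs with the forager higher as colour. Folds run from 0.30 to 2.42, and the gene at 2003.9 RPKM, the most abundant, is also among those of large fold.

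Together the 79 genes made up 1.79% ± 0.474 of the summed RPKM of a forager library (SD, n = 9) and 4.09% ± 0.996 of a nurse library (SD, n = 14). The forager shares ran from 1.12% to 2.47%, and the nurse shares from 2.15% in nurse 1 to 5.53% in nurse 7. Only nurse 1 lay within the range of the foragers. The 10 most abundant members held 73.5% of the members' summed RPKM in nurses, and the first of them alone 22.8%.

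The genes that separated the tasks most cleanly came first in the list by score. LOC105837598 had the lowest score of all, with the forager higher in 2 pairs, called reversed pairs here. It lay at 8.44 RPKM in the lowest forager, 46.6 in the median and 90.6 in the highest, and at 75 in the lowest nurse, 183 in the median and 612 in the highest. The groups overlapped by 1 library only: nurse 3 lay below foragers 1 and 7, and the other 13 nurses above every forager. The ratio of means was 4.23, and the log2 fold was 2.12 (SE 0.38). Its highest nurse, nurse 7, stood far above the next at 263 RPKM in nurse 12.

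LOC105839969 and LOC105837821 followed with 3 reversed pairs each. LOC105839969 ran from 10.9 through a median of 20.6 to 35.4 RPKM in foragers and from 23.7 through 53.6 to 83.7 RPKM in nurses. All of its reversed pairs involved nurse 1, since the next lowest nurse was at 40.5 RPKM. LOC105837821 was scarce, from 0.984 through 2.10 to 2.95 RPKM in foragers and from 2.82 through 5.03 to 6.19 in nurses. At this level a library held few reads of it, 3 to 29 in foragers and 19 to 129 in nurses, as recovered from the deposited values. Here nurse 4 was the lowest nurse and nurse 1 the next.

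LOC105837151 had 4 reversed pairs and LOC105835488 had 5. LOC105837151 ran from 44.8 through 87.7 to 151 RPKM in foragers and from 94.4 through 251 to 465 RPKM in nurses. LOC105835488 was at 262 RPKM in the lowest forager, 546 in the median and 642 in the highest, and at 428, 1224 and 1588 RPKM in nurses. In both genes nurse 1 alone lay among the foragers and the other 13 nurses lay above all of them, by a narrow margin (156 and 664 RPKM in the lowest of the 13). LOC105828577, also with 5 reversed pairs, shows that a low score does not need a large fold: its foragers ran from 17.4 to 28.6 RPKM and its nurses from 23.5 to 41.2 RPKM, a ratio of means of 1.36.

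**Figure D2:**
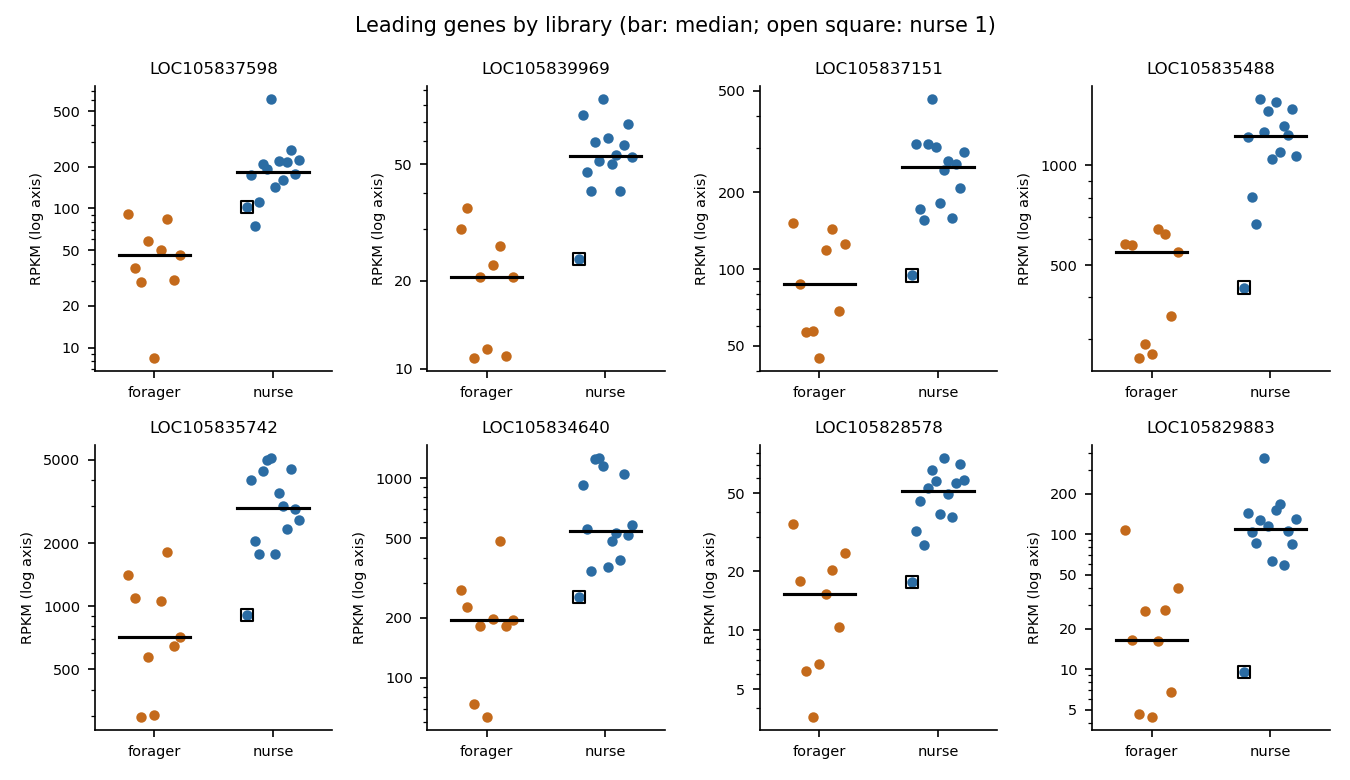
RPKM (logarithmic axis) in every library for 8 of the 79 genes, with foragers (n = 9) in orange, nurses (n = 14) in blue, the median of each task as a bar and nurse 1 as an open square. In LOC105839969, LOC105837151 and LOC105835488 nurse 1 is the only nurse level with the foragers, while in LOC105837598 it lies above them all.

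The most abundant members were among the most abundant transcripts of the head. LOC105835742 ranked 8 of 9622 genes by its nurse mean and 27 by its forager mean. It lay at 295, 710.3 and 1809.7 RPKM in the lowest, median and highest forager, and at 904, 2960.0 and 5092 RPKM in the lowest, median and highest nurse. Nurse 1 was level with the foragers and nurses 8 and 4, at 1774 and 1775 RPKM, just below forager 7, while the other 11 nurses lay above every forager. The log2 fold was 1.93 (SE 0.36). LOC105834640 ran from 63.5 through 196 to 486 RPKM in foragers and from 254 through 544 to 1257 in nurses. In it 5 nurses, nurses 1, 4, 8, 9 and 11, lay below forager 7. Across libraries of 1 task the pair varied in parallel: Pearson's r between them on the log2 scale was 0.92 over the 14 nurses and 0.96 over the 9 foragers. LOC105834640 had no match in the assembly, and whether the 2 share reads was not tested.

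The other 6 of the 8 most abundant members had smaller folds, with ratios of means from 1.69 to 2.52; the highest of these was LOC105835488, described above. LOC105840619 ran from 415 through 722 to 837 RPKM in foragers and from 534 through 1191 to 1586 in nurses, and all nurses but nurse 1 lay above every forager. LOC105831647 was at 456 RPKM in the median forager and 1036 in the median nurse, and LOC105835909 at 468 and 1009.8. Likewise LOC105833875 was at 479.9 and 922 RPKM, and LOC105835741 at 365 and 717. In LOC105831647 and LOC105833875 the lowest nurse was nurse 1, at 354 and 322 RPKM, below the forager medians. In LOC105835741 it was nurse 8 at 438 RPKM, with nurse 1 at 439.6.

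The largest folds belonged to genes that also varied most within a task. LOC105829883 had the largest log2 fold, 2.42 (SE 0.56), yet 12 reversed pairs, the most a member may have. It lay at 4.42 RPKM in the lowest forager, 16.5 in the median and 107 in the highest, forager 1, and at 9.60, 110.1 and 365 RPKM in nurses. Forager 1 was level with the middle nurses and nurse 1 with the lower foragers. LOC105837031 had a log2 fold of 1.81 (SE 0.54), from 2.11 through 18.2 to 34.6 RPKM in foragers and from 5.38 through 47.4 to 82.4 in nurses. LOC105839330 had one of 1.78 (SE 0.38), with medians of 38.4 and 117 RPKM, LOC105828578 one of 1.78 (SE 0.36), with medians of 15.4 and 51.4 RPKM, and LOC105835983 one of 1.5 (SE 0.41), with medians of 90.7 and 238. In all 5 the lowest nurse was nurse 1. Across the 79 genes, log2 fold rose with the SD within nurses (Spearman's rho = 0.87) and within foragers (0.87); this is across genes, which are not independent, and a gene of large spread needs a large fold to reach the score.

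Some members were scarce. In 4 of the 79 the forager mean was under 1 RPKM, and 11 reached 1 RPKM in fewer than all 23 libraries; the other 68 passed the filter on level in every library. LOC105836078 ran from 0.129 through 0.563 to 1.83 RPKM in foragers and from 0.983 through 2.35 to 3.53 in nurses, on 3 to 40 and 23 to 172 recovered reads. LOC105835035, with as few reversed pairs (6) and chosen after its values were seen, had 1 to 17 reads in foragers and 12 to 87 in nurses. Depth differs between the tasks, so the pair order of such genes rests on few reads in the shallow foragers.

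Other members with 6 reversed pairs lay at middle levels. LOC105828156 had medians of 20.8 RPKM in foragers and 44.7 RPKM in nurses, and LOC105835644 of 5.68 and 11.9 RPKM. In both, nurse 1 lay among the foragers and the other 13 nurses above all of them. At the limit of 0.10, 12 members had 12 reversed pairs, the most that the limit allows. Beside LOC105829883 they included LOC105828583, with medians of 40.4 and 78.0 RPKM, and LOC105840422, with 1.16 and 3.12. Genes just outside had 13, among them LOC105835519 with medians of 125.8 and 311 RPKM, LOC105839914 with 11.7 and 30.7, and LOC105838837 with 5.0 and 14.8. Their ratios of means, 2.34 to 2.55, were above the members' median. LOC105830375, whose log2 fold of 3.04 (SE 0.99) exceeded that of every member, lay outside with 17 reversed pairs: its foragers ran from 5.71 to 1249 RPKM and its nurses from 19.1 to 1851.

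Nurse 1 was the main exception among the libraries. It was the lowest nurse in 61 of the 79 genes and lay below the forager median in 44. On the log2 scale it was below the mean of the other 13 nurses in 76 genes, by a median of 0.97. Nurse 1 also had the lowest summed RPKM over all genes of the 23 libraries, 260684. The next lowest nurse was nurse 4, at 282271, and nurse 2 had the highest sum, 391450. The gap of 0.97 is not corrected for this. The same gap over the 9622 genes was not taken, so how far it is particular to the 79 genes is not known. Of the 696 reversed pairs among 9954, 352 involved nurse 1, 50.6% of them. Next among the nurses came nurse 4, with 103 reversed pairs, and nurse 3, with 52, while nurse 6 had 3. Each reversed pair also holds a forager: forager 7 was in 148, forager 1 in 123 and forager 2 in 118, while forager 3 was in 17. The genes with nurse 1 furthest below the other nurses were LOC105829883, LOC105837031 and LOC105835983, where it lay lower by 3.47, 2.86 and 2.45 on the log2 scale. The exception was not uniform: in 7 members nurse 1 lay above every forager, among them LOC105837598, at 102 RPKM against 90.6 in the highest forager.

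Nurse 1 alone kept some genes from a full separation of the tasks. In 7 genes the other 13 nurses all lay above every forager, 0.0727% of the 9622 genes, and such genes are members by the rule; with nurse 1 there were 0 such genes. They were LOC105839969, LOC105837151, LOC105835488, LOC105828156, LOC105835644, LOC105840619 and LOC105838644. The last, named after its values were seen, had very even foragers, from 10.8 through 11.7 to 13.4 RPKM, while nurses other than nurse 1 ran from 15.1 to 28.6. The median score of the 79 without nurse 1 was 0.034 in place of 0.071. The number of genes reaching the limit was then 171, with the filter applied again, in place of 79, and it was 137 without forager 7 and 123 without forager 1.

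**Figure D3:**
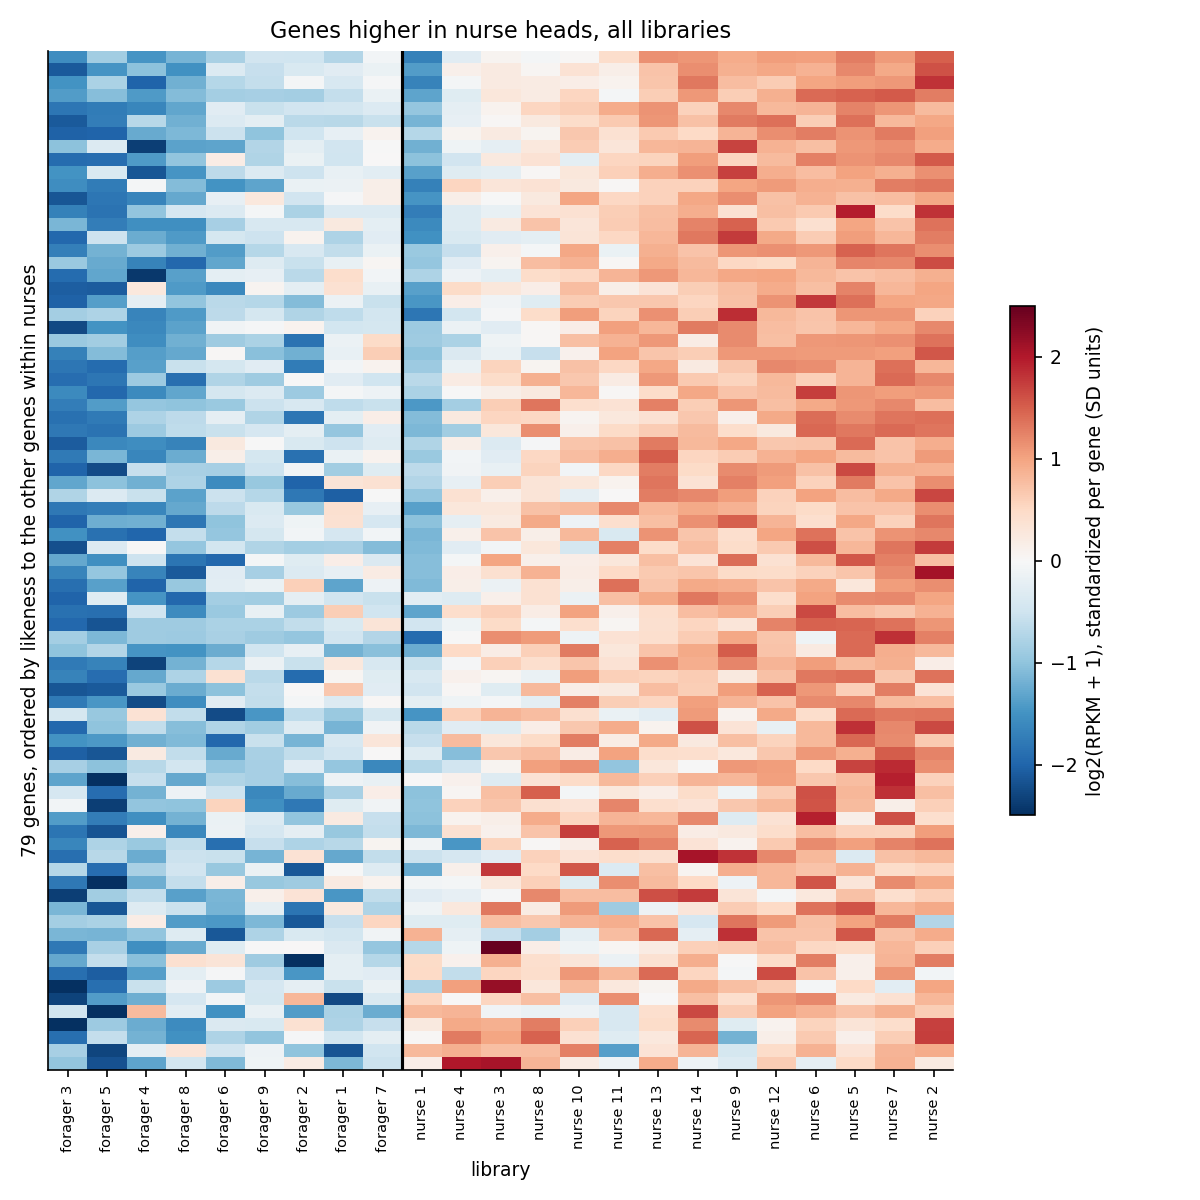
Each row is 1 of the 79 genes and each column a library; colour gives log2(RPKM + 1) standardized over the 23 libraries (SD units), with foragers left of the line and nurses right, both ordered by the median over genes. Nurse 1, the first column right of the line, is blue in most rows, and foragers 3 and 5 at the left are the lowest.

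The foragers also differed among themselves in all these genes together. Each gene's log2 values were standardized over the 23 libraries, and the median over the 79 genes was taken in each library. It ran in foragers from -1.76 SD units in forager 3 through a median of -0.70 to -0.25 in forager 7, and in nurses from -0.93 in nurse 1 through 0.73 to 1.04 in nurse 2. Forager 7 was the highest forager in 25 genes, forager 1 in 18 and forager 2 in 17. Forager 3 was the lowest in 29 and forager 5 in 23. Nurse 4, at -0.06, and nurse 1 were the nurses nearest to the foragers.

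Read depth moved with these values among the foragers, and it differed between the tasks. The read totals recovered from the RPKM values were 3.68 to 15 M reads (megareads) in foragers and 8.31 to 31.3 M reads in nurses. The 4 foragers with the lowest values, 3, 5, 4 and 8, at -1.76 to -1.18 SD units, had 4.01, 3.68, 6.39 and 6.43 M reads. The other 5 foragers lay between -0.70 and -0.25; 4 of them had 8.79 M reads or more, but forager 1, at -0.40, had 5.58. Among nurses the order was mixed. Nurses 12, 4 and 13, the shallowest, with 8.31, 8.86 and 8.99 M reads, were at 0.79, -0.06 and 0.71. The nurse of highest value, nurse 2 at 1.04, had 12.5 M reads. Nurse 1, of lowest value, had 11.3 M reads. Of the deeper nurses, nurses 7, 9, 5 and 6 had 14.7, 16.2, 23.7 and 31.3 M reads. They were at 1.03, 0.77, 1.01 and 0.86, while nurse 3, with 30 M reads, was at 0.22. Among the 4 foragers and 11 nurses of 8 to 17 M reads, the members' median score was 0.11 and their highest 0.23, and 29 of the 79 had a score of at most 0.10, as 1.2% of the 9622 genes did. These 44 pairs are among those that chose the genes, so the scores describe the members and cannot speak to depth. The median log2 fold in these libraries was 0.64, against 0.87 in all 23. The part of depth in the difference was not tested.

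**Figure D4:**
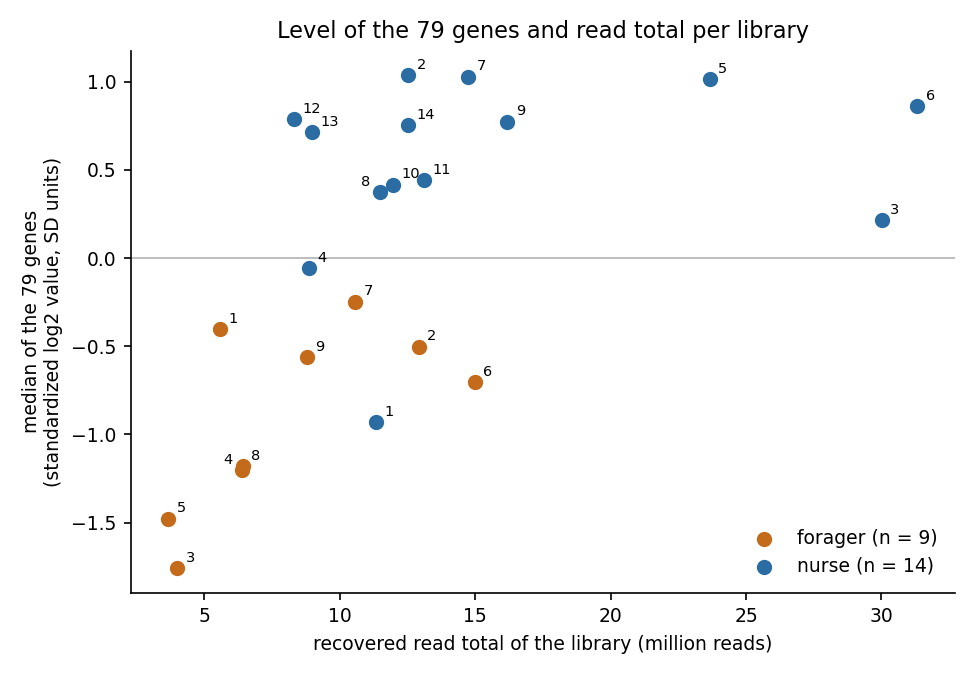
Each point is a library, numbered by its replicate: its recovered read total against the median over the 79 genes of the standardized log2 value (SD units), foragers (n = 9) in orange and nurses (n = 14) in blue. The foragers at the lower left, 3 and 5, are also the shallowest libraries, while nurse 1 lies among the foragers at 11.3 M reads.

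Each library was also placed by genes chosen without it, though the score, limit and filter were fixed with earlier results of these data known. The genes were chosen again on the other 22 libraries, which gave 65 to 171 genes, 65 to 79 of them among the 79. The left-out library was then placed by its median standardized value against the midpoint of the task means. In this way 19 of the 23 libraries fell on the side of their own task, 7 of 9 foragers and 12 of 14 nurses. The exceptions were foragers 1 and 7 and nurses 1 and 4. Nurse 1 was the furthest out, at -1.19 against a midpoint of -0.14, while nurse 4, at -0.25, lay close to its midpoint of -0.14. Foragers 1 and 7 were at -0.12 and 0.01, against midpoints of -0.21 and -0.20. The rounds share most of their libraries and genes, and depth differs between the tasks, so these placements are a description. The part of depth in them was not tested.

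Within a task, most of the 79 genes rose and fell together from library to library. Over the 14 nurses, Pearson's r on the log2 scale had a median of 0.57 over the 3081 pairs of members and was positive in 90.9% of them, where all pairs of the 9622 genes had a median of 0.10 and 60.8%. Over the 9 foragers the median was 0.44, and 0.07 over all genes. Part of the value in nurses rests on nurse 1: over the other 13 it was 0.37, and 0.08 over all genes. The 84 genes higher in foragers by the mirrored rule, a score of at least 0.90 (0.873% of the 9622), had medians of 0.21 in nurses and 0.41 in foragers. The points of each r share a library's depth and composition, and the choice by score favours genes that misplace the same libraries, so these values are descriptions with no test.

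**Figure D5:**
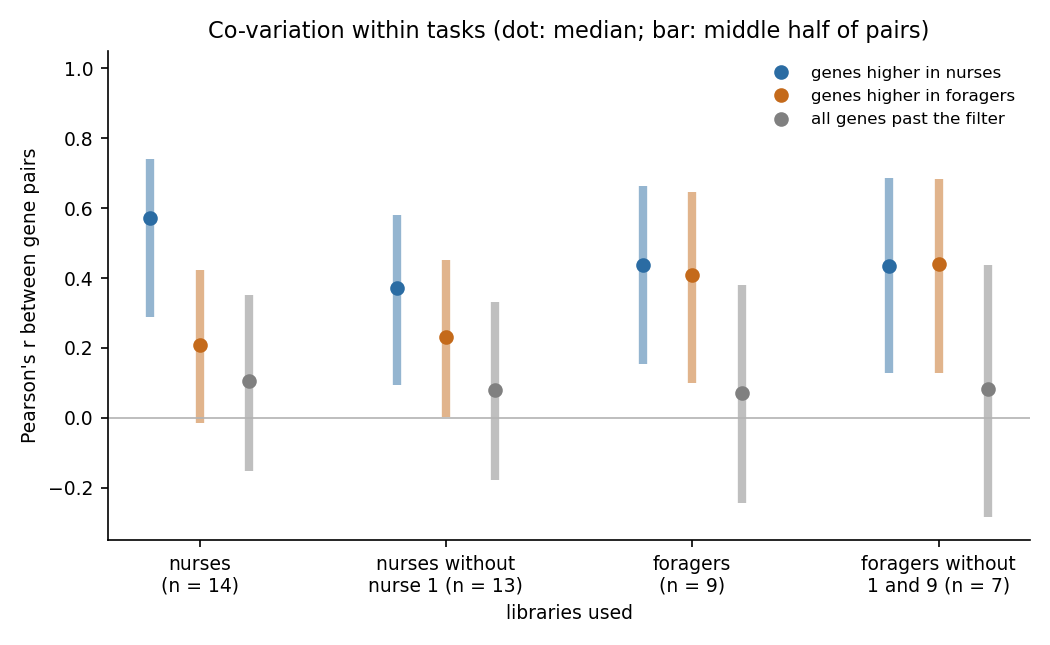
Pearson's r between pairs of genes on the log2(RPKM + 1) scale within nurses and within foragers, with all libraries and without those named on the axis: dots are medians over gene pairs and bars the middle 50% of pairs. For the 79 genes higher in nurses the median falls from 0.57 to 0.37 without nurse 1 and stays above that of all genes past the filter, 0.08.

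Average-linkage clustering of the deviations from the task means, cut at r = 0.5, put 53 of the 79 genes into 1 group. The other 26 fell into 15 groups of 1 to 4 genes. The group of 53 had a median level of 57.6 RPKM and held all 17 members at or above 100 RPKM. The genes with the highest median r to the other members, 0.68 to 0.70 within tasks, were LOC105840619, LOC105834327, LOC105835742, LOC105835983 and LOC105835488. LOC105834327 had medians of 134 RPKM in foragers and 255 in nurses, and the highest r of any member pair, 0.94 within tasks, was with LOC105836625. LOC105834327 and LOC105836625 are genes of modest fold that followed the same libraries closely: the ratios of their means were 1.69 and 1.48. Among the genes of highest median r, LOC105840619 also had a ratio of 1.69. LOC105835742, LOC105835983 and LOC105835488 had larger ones, 3.57, 2.54 and 2.52.

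A few members did not follow the others. LOC105828154 had a median r of -0.21 with the other members over the nurses and 0.37 over the foragers. Its highest nurse, at 26.3 RPKM, was nurse 3, and nurse 1 was at 15, near the nurse median of 16. LOC105832670, the scarcest member, had -0.09 and 0.05, with 0.293 to 0.951 RPKM in foragers and 0.4931 to 1.26 in nurses. LOC105828804 stood out by 1 library: nurse 3 had 316 RPKM, where the nurse median was 99.2, and its median r was 0.09 over the nurses and 0.54 over the foragers. LOC105832670 and LOC105828804 were singled out after their values were seen. In 12 of the 79 genes the median r over the nurses was under 0.3.

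Co-variation reached beyond the members. Of the 9543 other genes, 54 had an r above 0.7 with the members' median profile in both tasks, 0.566% of them, and 33 of the 79 members did with the profile of the other members. The 54 had a median log2 fold of 0.49, nurses minus foragers, where the median over all 9543 was -0.033. In 53 of the 54 the nurse was higher in most pairs, against 39.5% of the 9622 genes. The median score of the 54 was 0.17, past the limit used here. The profile was made from the members, whose choice used the tasks, and this was not tested.

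Within a task the members spread more than the median gene. The median SD on the log2 scale was 0.46 in foragers and 0.41 in nurses, where all 9622 genes had 0.33 and 0.25. These sets were not matched for level. The median level was 28.5 RPKM in the members and 10.9 over the 9622 genes, and log2(RPKM + 1) shrinks the spread of scarce genes. The SD was larger in foragers in 47 of the 79 genes, 59.5%, against 73.2% of the 9622. Without nurse 1, the median SD of the members in nurses was 0.32, and the share was 77.2% of the 79 and 77.4% of the 9622.

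Some members lie side by side in the genome. Of the 79, 69 could be placed on a chromosome of ASM1337386v2, and 8 of these, 11.6%, had another member within 3 genes, where 2.93% of the 8554 other placed genes past the filter had one. The 8 form 4 pairs. LOC105835983 and LOC105835975 are direct neighbours and moved together, with r of 0.80 over the nurses and 0.86 over the foragers; LOC105835975 had medians of 16.9 and 26.7 RPKM. LOC105837819 and LOC105837821 are direct neighbours whose spans overlap, with r of 0.63 and 0.83. The libraries carry no strand, so reads from sequence that both share could not be assigned by strand, and the extent of the overlap was not measured. LOC105837819 had medians of 1.79 RPKM in foragers and 4.15 in nurses. The same limit reaches beyond this pair. Of the 69 placed members, 22 had a span that overlapped another gene's, among them the abundant LOC105835742 and LOC105835488. The share over all genes was not taken, and sharing of reads was not tested. LOC105828577 and LOC105828578 lie with 1 gene of the assembly between them that is not among the 9622 genes, with r of 0.61 and 0.26. LOC105828154 and LOC105828156 are direct neighbours but did not move together in nurses, with r of -0.29 over the nurses and 0.47 over the foragers. The labels do not name the annotation behind the deposited values, which may order genes differently.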

How the data were processed

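The values are RPKM as deposited by the authors, for 12648 genes in 23 libraries of worker heads, 9 of foragers and 14 of nurses. The submitters' processing notes name STAR 2.5.0b as a tool; for counting, genome build and annotation, what was used is not stated there. Per the labels' protocols, libraries were unstranded. All 23 columns were used, matched to libraries by name.

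The filter, 1 RPKM or more in 9 or more libraries, kept 9622 genes. The pair score, the members and the lists were chosen with earlier results of these data known, and no test of the tasks was run on them. Folds are differences of group means of log2(RPKM + 1), with the SE from both groups' SDs. Named genes are the 12 members of lowest score, the 8 most abundant, the 8 of largest fold, the 3 nearest the limit on each side, up to 10 neighbours, the 5 of highest median r, the 3 with nurse 1 lowest, and 2 named earlier; others are marked in the text. Descriptions, sequences and marker lists were not used here, since no table at hand pairs them with the identifiers.

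Depth was recovered from the values, because low RPKM values of a gene step by the worth of a single read. In the nurse libraries the totals made 71.7 to 98.8% of values whole within 0.05 reads, over genes scarce in foragers. In the foragers the share was 100.0%, which was fixed in advance, because the gene lengths were chosen to make the forager values whole. The score and the recovery were tested on simulated data. The genes simulated for the score were independent and had equal SD in both tasks, unlike these data. That run therefore checks the calculation only. Alternatives were other limits, filters, pseudocounts, scalings, subsets of libraries and same-numbered pairs. Tables were read with pandas 2.3.3 in Python 3.11.15, computed on with SciPy 1.17.1 and NumPy 2.4.6, and drawn with matplotlib 3.10.9.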

Additional observations from a re-analysis of the deposited data

Results flagged for a closer look

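In 4 genes a single forager stood apart from the other 8 on the RPKM scale, its gap to the next divided by the group's range being above Dixon's 95% critical value for 9 samples. Forager 7 had 486 RPKM of LOC105834640, and the next highest forager 277. Forager 1 had 107 RPKM of LOC105829883, and the next 39.8. In the same library LOC105839914 was at 31.1 RPKM, where the next had 16.1, and LOC105830375 at 1249 RPKM, where the next had 500.95. The last 2 are not members. On the log2(RPKM + 1) scale, 0 of the 4 lay past the critical value. Highest and lowest foragers were examined in 33 measures; chance sets apart about 1 in 20 groups, and the nurses were left out because the test covers groups of up to 10.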

How the results depend on the processing

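The number of genes, 79, depends on the limit and the scaling: 14 with a limit of 0.05 and 218 with 0.15, 147 with a common summed RPKM, 129 with TMM factors, 146 with median-of-ratios factors and 129 with quantiles, of which 69, 73, 76 and 67 were among the 79. Leaving out 1 library gave 65 to 171, and leaving out nurse 1, forager 1 and forager 9 together gave 298. With only the same-numbered pairs as a replicate block there were 38 genes, 15 of them among the 79; nothing in the labels pairs these libraries. Among 9 pairs, 1 reversed pair already exceeds the limit of 0.10, so here the limit allowed none, unlike over all pairs of libraries. The counts of 38 and 79 therefore do not rest on the same rule. The 9 pairs also set nurse 1, the lowest nurse in 61 of the 79 genes, against forager 1, the highest forager in 18. The part of either in the lower count was not tested. With no filter there were 82 genes, and with a mean of at least 5 RPKM 64.

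The median log2 fold, 0.87, ran from 0.64 to 1.03 over 33 alternatives, among them 0.82 to 0.95 without 1 library and 0.82 with the replicate block; the choice of members largely fixes its sign. Median r was 0.37 to 0.57 in nurses and 0.42 to 0.48 in foragers. By the mean over genes, 19 of 23 left-out libraries again fell on their own side. The folds of the 31 named genes in 33 alternatives gave 1023 values. Of these values, 10 moved by more than the spread between libraries and 0 changed sign, which the choice of members largely fixes. In the libraries of 8 to 17 M reads, 4 were smaller: LOC105828578 1.15, LOC105835983 0.66, LOC105835741 0.56 and LOC105828583 0.44. The other 6 were of scarce genes under another pseudocount: LOC105836078, at 0.97, had 1.74 with 0.1 and 0.36 with 5, LOC105840422 had 1.36 and 0.35, and with 5 LOC105837821 and LOC105837819 had 0.45 each. Few reads in the shallow foragers limit the scarce members.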
